A study of Mus musculus with 36 samples.

Results

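Spleens of water-drinking mice were compared between 1 week and 18 hours, with 3 arrays at 1 week set against 3 arrays at 18 hours across 23982 probes. These 6 arrays are among 36 in the study, which profiled spleen and liver of mice given either oil palm phenolics (OPP, a polyphenol extract) or distilled water. All mice were male BALB/c mice on standard chow that had received J558 cells, a mouse myeloma line, under the skin at the back of the neck. The mice of the 1 week group were 7 weeks old and drank distilled water. The mice of the 18 hours group were 6 weeks old and also drank distilled water. The time was read as time after inoculation, but the treatment text of every sample speaks of 4 weeks after inoculation, and age and time change together, so age, time and time on the drink cannot be told apart. Nothing in the labels says if each replicate came from a single mouse or from pooled mice, so the p-values measure the spread between arrays, which may be technical. The 2 groups were chosen from their labels, and no measured value entered the choice.

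The spleen filters blood through macrophages of its marginal zone and red pulp, which take up particles, microbes and worn red cells through scavenger and lectin receptors, and in the mouse it also makes blood cells. Injury and infection raise plasma proteins of the acute phase, made largely by hepatocytes under the cytokines interleukin 6 and interleukin 1, and some of them are also made by macrophages. Regenerating (Reg) proteins are small secreted lectin-like proteins known in the mouse from pancreas and gut, where several are induced by injury and inflammation.

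Values are the deposited ratios, each probe divided by its own median over the 18 spleen arrays, so a ratio of 1 is that probe's usual spleen value and no ratio tells how abundant a transcript is. For the same reason the level of the B cell gene Cd79b (difference -0.11) or of albumin, Alb (-0.02), cannot show the tissue of an array. Differences are log2 of the ratio at 1 week minus log2 of the ratio at 18 hours, with the standard error (SE) of a limma model fitted to all 18 spleen arrays in 6 groups, and n = 3 arrays a group. A probe passed the threshold, or was called, where its adjusted p (Benjamini-Hochberg, all 23982 probes together) was below 0.05. Fold values are ratios of geometric means. In bulk tissue, fewer cells of a type and less RNA per cell cannot be told apart.

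Some arrays stood apart. The median log2 ratio of 19 measured hepatocyte markers was -0.08, -0.25 and -0.18 in replicates 1, 2 and 3 at 1 week, and -0.06, 1.44 and 0.96 in replicates 1, 2 and 3 at 18 hours. Replicates 2 and 3 at 18 hours were thus high in the median of the hepatocyte markers, while replicate 1 was at the level of the 1 week arrays. Not every member was high in replicates 2 and 3. There Alb had ratios of 1.009 and 1.05, Fgb 0.957 and 0.932, and Tat 1.011 and 1.066. Cyp3a11 had 0.861 and 0.922, and Trf 1.146 and 1.003. The median of 20 measured pancreatic acinar markers was 0.05, -6.64 and 0.66 in replicates 1, 2 and 3 at 1 week, against 0.49, 0.04 and -0.22 at 18 hours. In replicate 2 at 1 week these markers were at or near the lowest ratio in the table, 0.01, which 20 values of that array reached and no other spleen array did. Replicate 3 at 1 week was low in several lists at once, with medians of -0.81 for erythroid markers, -0.78 for cell cycle genes, -0.74 for DNA replication genes and -0.74 for neutrophil markers. The plot of list medians by array shows these 3 departures.

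**Figure D1:**
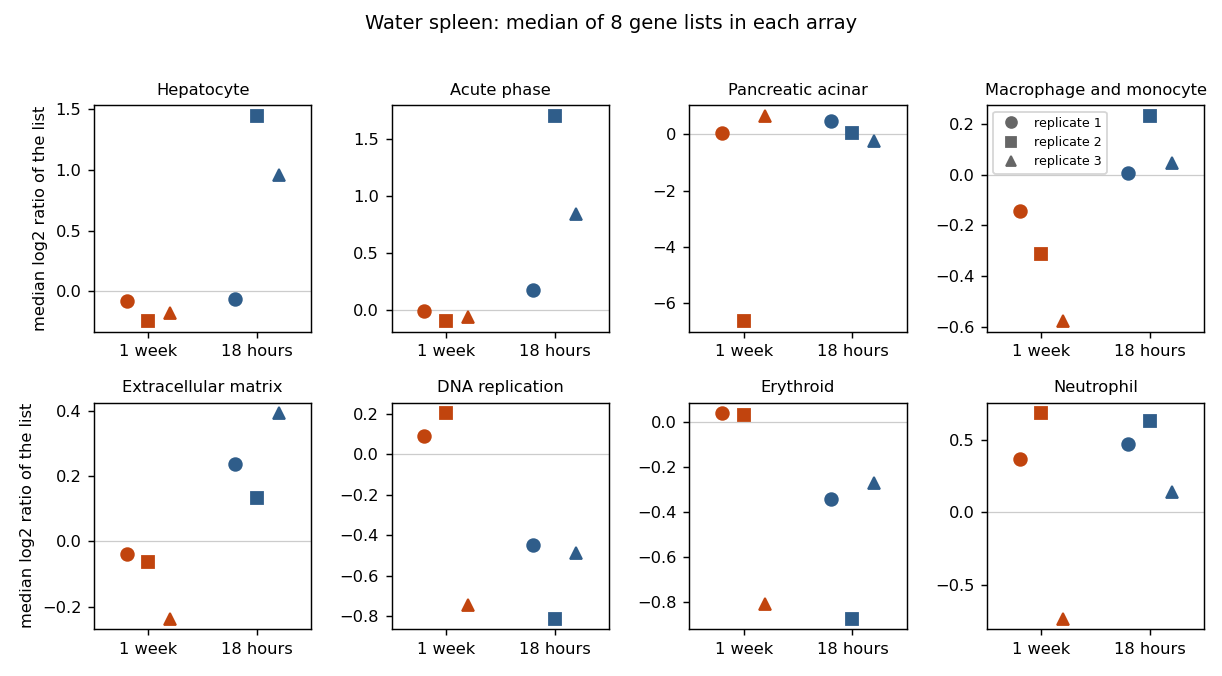
Median log2 ratio of the measured members of 8 gene lists in each water spleen array (vertical axis, log2), with 1 week left and 18 hours right; circles, squares and triangles are replicates 1, 2 and 3. Hepatocyte and acute phase medians are high in replicates 2 and 3 at 18 hours (hepatocyte 1.44 and 0.96), the acinar median is -6.64 in replicate 2 at 1 week, and replicate 3 at 1 week is low in the erythroid, DNA replication and neutrophil lists.

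Between the times most called probes were lower at 1 week. Of 23982 probes, 156 passed the threshold, 133 lower (0.555%) and 23 higher (0.0959%) at 1 week. They stood for 109 named genes that fell and 18 that rose, and 25 called probes had no gene symbol. The groups did not overlap on any of the 156. The median called fall was 1.64-fold and the median called rise 1.44-fold, and 26 probes differed by more than 1 on the log2 scale, of which 25 were lower. The 6 largest falls among named genes were those of Reg2, Reg3a, Reg3b, Saa3, Hpx and Marco.

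The number of calls depended on single arrays. It was 2 without replicate 2 at 18 hours, 32 without replicate 2 at 1 week, 103 without replicate 1 at 1 week and 935 without replicate 3 at 1 week, with 726 of the 935 higher. With replicate 1 or replicate 3 at 18 hours left out it was 120 and 114. Each of the 156 probes kept the sign of its difference in every one of these 6 fits. This follows from groups that do not overlap and is no measure of stability. The counts given below rest on all 6 arrays, and the plot of calls with each array left out shows how they move.

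**Figure D2:**
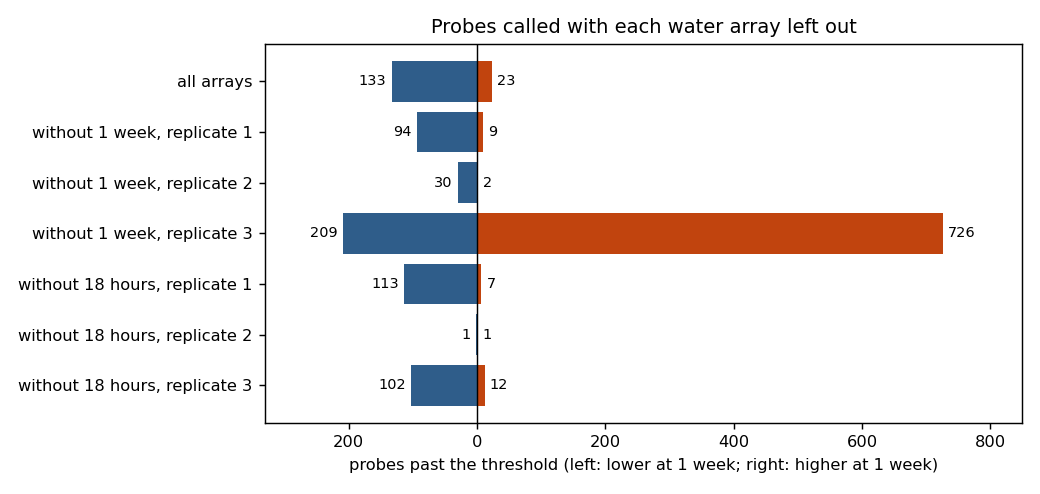
Probes past an adjusted p of 0.05 in the comparison of 1 week with 18 hours in water spleen, with all arrays and with each of the 6 arrays left out; bars to the left count probes lower at 1 week and bars to the right probes higher at 1 week. All arrays give 133 lower and 23 higher, leaving out replicate 3 at 1 week gives 209 lower and 726 higher, and leaving out replicate 2 at 18 hours gives 1 and 1.

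Reg genes and Saa3 showed the largest falls. Reg2 had ratios of 1.31, 0.203 and 1.64 at 1 week, against 31.65, 34.23 and 10.51 at 18 hours. All 3 arrays of 18 hours were thus far above every array of 1 week, and Reg2 was 29.7-fold lower at 1 week (difference -4.89, SE 0.82, adjusted p 0.0144 in limma). Reg3a, encoded in the same stretch of chromosome 6, had 1.17, 0.803 and 1.75 at 1 week, against 28.29, 27.48 and 6.89 at 18 hours (difference -3.89, SE 0.68, adjusted p 0.0156 in limma). Reg3b, a lectin that binds and kills bacteria in the mouse gut, had 1.68, 0.679 and 1.54 at 1 week, against 18.89, 42.52 and 3.695 at 18 hours (difference -3.57, SE 0.81, adjusted p 0.0476 in limma), and its second probe gave -3.64 with an adjusted p of 0.0695. In each of the 3 genes replicate 3 at 18 hours was the lowest of its group and still above every array of 1 week. Saa3, a serum amyloid A protein made in mice by macrophages and other cells outside the liver, had 1.125, 0.779 and 1.47 at 1 week, against 9.39, 6.95 and 3.48 at 18 hours (difference -2.49, SE 0.47, adjusted p 0.0243 in limma).

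Markers of pancreatic acinar and islet cells were read beside the Reg genes, since Reg proteins are known from pancreas. Replicates 1 and 3 at 1 week had acinar medians of 0.05 and 0.66 and Reg2 ratios of 1.31 and 1.64, and the 18 hours arrays had acinar medians from -0.22 to 0.49 and Reg2 ratios of 10.51 or more. Reg1, a Reg gene of healthy acinar cells, had 1.38, 0.01 and 2.27 at 1 week, against 2.94, 2.24 and 1.88 at 18 hours, with overlapping groups and an adjusted p of 0.319 in limma. Without replicate 2 at 1 week, the array with acinar markers near 0.01, Reg2 still fell (difference -3.94, adjusted p 0.0488 in limma), while Reg3a (-3.61, adjusted p 0.0503) and Reg3b (-3.16, adjusted p 0.155) did not pass. Without replicate 2 at 18 hours, Reg2 stood at -4.59 with an adjusted p of 0.0822 in limma. None of the 20 acinar markers was called, and their differences ran from -2.88 to -1.16. Of 10 measured islet markers none was called, and their median difference was -0.01. Ins2, insulin, had 0.757, 0.676 and 5.213 at 1 week, against 3.223, 1.96 and 1.55 at 18 hours (adjusted p 0.763 in limma). The glucagon gene Gcg had 0.929, 0.97 and 2.423 at 1 week, against 1.744, 1.621 and 1.193 at 18 hours (adjusted p 0.864 in limma). In both genes all 3 arrays of 18 hours were above replicates 1 and 2 of 1 week, as for the Reg genes, while replicate 3 of 1 week was the highest of the 6, an array in which the Reg genes were below all arrays of 18 hours. The part of pancreatic RNA in the Reg values was not tested.

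The promoters of these genes are shown because the genes moved together and because short motifs of factors activated by interleukin 6 and by microbial signals can be looked for in them. The sequences are RefSeq windows on GRCm38.p6 of the 250 bases before the annotated start, printed in the direction of the gene. Reg2 lies at chr6:78404905-78405154, Reg3a at chr6:78380459-78380708 and Reg3b at chr6:78370635-78370884, all on the plus strand. Saa3 lies at chr7:46715677-46715926 on the minus strand, and Cxcl1, described with the chemokines, at chr5:90890995-90891244 on the plus strand. Capitals mark matches on either strand to the STAT motif TTCNNNGAA, the C/EBP motif TTGCNNAA or the NF-kB motif, which reads GGG, then any 2 bases, then TTTCC.
Reg2: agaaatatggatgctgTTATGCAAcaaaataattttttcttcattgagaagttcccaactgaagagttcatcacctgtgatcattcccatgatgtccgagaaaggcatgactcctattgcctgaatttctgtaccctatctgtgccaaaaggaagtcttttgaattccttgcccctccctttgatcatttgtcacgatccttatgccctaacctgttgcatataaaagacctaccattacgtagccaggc
Reg3a: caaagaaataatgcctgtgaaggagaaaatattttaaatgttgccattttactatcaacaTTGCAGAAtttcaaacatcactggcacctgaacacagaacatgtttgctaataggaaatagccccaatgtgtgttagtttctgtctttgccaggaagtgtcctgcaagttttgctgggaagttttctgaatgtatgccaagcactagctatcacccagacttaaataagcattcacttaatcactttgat
Reg3b: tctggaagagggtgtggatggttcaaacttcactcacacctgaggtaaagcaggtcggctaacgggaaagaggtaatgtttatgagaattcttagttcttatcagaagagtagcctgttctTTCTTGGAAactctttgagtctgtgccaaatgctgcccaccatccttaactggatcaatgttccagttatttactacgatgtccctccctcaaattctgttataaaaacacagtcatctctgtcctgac
Saa3: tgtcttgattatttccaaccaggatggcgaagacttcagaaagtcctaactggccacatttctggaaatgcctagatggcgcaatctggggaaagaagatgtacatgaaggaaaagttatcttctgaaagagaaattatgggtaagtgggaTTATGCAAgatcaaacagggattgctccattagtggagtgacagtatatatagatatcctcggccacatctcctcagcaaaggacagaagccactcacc
Cxcl1: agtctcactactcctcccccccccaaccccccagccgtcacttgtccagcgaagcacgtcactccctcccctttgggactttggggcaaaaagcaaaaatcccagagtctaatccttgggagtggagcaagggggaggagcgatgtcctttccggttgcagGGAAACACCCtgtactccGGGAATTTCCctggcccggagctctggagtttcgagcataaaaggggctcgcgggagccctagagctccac

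Reg2, Reg3a and Saa3 each held 1 C/EBP match, Reg3b 1 STAT match and Cxcl1 2 NF-kB matches, 89 and 71 bases before the start. In none of the 5 did matches overlap. Of 27025 promoters of the same length, 7.18% held the STAT motif, 1.4% the NF-kB motif and 9.55% the C/EBP motif. Of the 15 genes with the largest falls, 12 had a promoter in the table. The STAT motif was in Reg3b, Itih4 and Steap4, the NF-kB motif in Marco and Steap4, and the C/EBP motif in Reg2, Reg3a, Saa3, Hpx and Steap4. A match describes letters and does not show that a factor was bound.

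Acute phase genes were lower at 1 week, and on some of them the same arrays were high as for hepatocyte markers. Of 21 measured members 5 fell and none rose, with a median difference of -0.99, beside 0.712% of all 14739 genes called lower, 0.115% called higher and a median over all genes of 0.01. Steap4, a metalloreductase, had ratios of 0.798, 0.748 and 0.711 at 1 week, against 1.77, 2.32 and 1.54 at 18 hours (difference -1.30, SE 0.20, adjusted p 0.0144 in limma), although a second probe gave -0.05. Itih4, a plasma protein, had 0.952, 0.674 and 1.31 at 1 week, against 2.37, 5.13 and 2.50 at 18 hours (difference -1.73, SE 0.34, adjusted p 0.0284 in limma), with -0.47 on a second probe. Cp, ceruloplasmin, the copper-carrying ferroxidase of plasma, had 0.969, 0.773 and 0.721 at 1 week, against 1.62, 3.545 and 1.62 at 18 hours (difference -1.37, SE 0.28, adjusted p 0.0306 in limma). As for every called probe, all arrays of 18 hours lay above all arrays of 1 week on these 3 genes. Replicate 1 at 18 hours, without raised hepatocyte markers, had 1.77, 2.37 and 1.62. The highest 1 week ratios were 0.798, 1.31 and 0.969.

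Hpx, haemopexin, the plasma carrier of free haem, had a different pattern. Its ratios were 1.09, 0.935 and 1.07 at 1 week, against 1.18, 10.92 and 5.745 at 18 hours (difference -2.03, SE 0.45, adjusted p 0.0439 in limma). Only replicates 2 and 3 at 18 hours, the arrays high in hepatocyte markers, stood clear of the 1 week group. Saa1, Saa2 and Fga, which did not pass, had the same 2 arrays high: Saa1 had 1.04, 0.923 and 0.980 at 1 week, against 1.00, 24.43 and 11.44 at 18 hours. Hp, haptoglobin, which binds free haemoglobin, fell on 1 probe (difference -1.01, adjusted p 0.0315 in limma) and gave -0.99 with an adjusted p of 0.12 on the other.

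The hepatocyte list itself had a median difference of -1.0 over 19 measured members. Of these, Hpx and Serpina1a, an inhibitor of neutrophil elastase, fell, beside 0.712% of all genes called lower. Serpinc1, antithrombin, outside that list and picked after its values were seen, also fell, with 0.877, 0.842 and 0.777 at 1 week, against 1.05, 1.85 and 1.45 at 18 hours. Members that did not pass included Apoa2 at -2.48, Mup2 at -2.61 and Cyp2e1 at -1.89, and in 17 of the 19 the difference was below 0. Without both arrays of 18 hours that were high in these markers, the hepatocyte median was -0.11 and the acute phase median -0.15, against replicate 1 alone. With 1 array at 18 hours, that array is assumed to vary like the other groups, and the values are given as a description. In that fit the difference was -3.11 for Saa3, -1.33 for Itih4, -1.23 for Steap4, -0.99 for Cp and -0.20 for Hpx. The part of hepatocyte RNA in the other acute phase values was not tested.

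Among markers of macrophages and monocytes, Marco, Cd14, Adgre1 and C1qc fell at 1 week. Of 16 measured markers 4 fell and none rose, beside 0.712% of all genes called lower, with a median difference of -0.40. In 8 of them all 3 arrays of 1 week lay below all of 18 hours, beside 8.16% of all genes. Marco, a scavenger receptor of marginal zone macrophages in mouse spleen, had ratios of 0.954, 0.784 and 0.711 at 1 week, against 3.12, 3.42 and 3.12 at 18 hours, and was 3.97-fold lower at 1 week (difference -1.99, SE 0.34, adjusted p 0.0149 in limma). Cd14, a co-receptor for bacterial lipopolysaccharide, had 0.628, 0.6 and 0.622 at 1 week, against 1.24, 1.33 and 1.41 at 18 hours (difference -1.10, SE 0.20, adjusted p 0.0163 in limma). The 3 arrays of each group lay close together in both genes, with a wide gap between the groups.

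Adgre1, an adhesion receptor that marks mature macrophages in mice, had 0.714, 0.622 and 0.580 at 1 week, against 1.21, 1.24 and 1.24 at 18 hours (difference -0.95, SE 0.17, adjusted p 0.018 in limma), and a second probe gave -0.15. C1qc, a chain of the complement recognition protein C1q that macrophages make, had 0.834, 0.693 and 0.571 at 1 week, against 0.973, 1.34 and 1.03 at 18 hours (difference -0.68, SE 0.14, adjusted p 0.0329 in limma). Its sister chains C1qb at -0.66 (adjusted p 0.0686) and C1qa at -0.45 (adjusted p 0.192) did not pass in limma. Spic, a transcription factor of red pulp macrophages, stood at -0.70 and the haem-degrading enzyme Hmox1 at -0.60, neither past the threshold. Of the 16 markers 2 had positive differences, neither past the threshold. The mannose receptor gene Mrc1 stood at 0.44, and Vcam1, an adhesion molecule of red pulp macrophages, at 0.27 with all arrays of 1 week above all of 18 hours. Lyz2, lysozyme, stood at -0.24, the monocyte chemokine receptor Ccr2 at -0.07 and the iron exporter Slc40a1 at -0.05.

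More myeloid genes were among the largest falls. Clec4n, the lectin receptor dectin-2 that binds fungal mannan, had 0.640, 0.539 and 0.487 at 1 week, against 1.40, 1.54 and 1.42 at 18 hours (difference -1.40, SE 0.24, adjusted p 0.0149 in limma). Treml4, a receptor of spleen macrophages and dendritic cells in the mouse, had 0.679, 0.595 and 0.417 at 1 week, against 1.28, 1.51 and 1.37 at 18 hours (difference -1.33, SE 0.21, adjusted p 0.0144 in limma). In both genes the group values were separated by more than the spread within either group. Nr1h3, the oxysterol receptor LXR alpha that marginal zone macrophages of mouse spleen depend on, had 0.790, 0.827 and 0.758 at 1 week, against 1.47, 2.36 and 1.74 at 18 hours (difference -1.20, SE 0.25, adjusted p 0.0315 in limma). A second Nr1h3 probe gave -0.43 and did not pass. Lilrb4a, an inhibitory receptor of myeloid cells, fell by 1.22 on the log2 scale, with -0.26 on a second probe. Ms4a6d, a membrane protein of macrophages, fell on both of its probes, by 1.23 and 1.62. Raver2, an RNA-binding protein, fell by 1.94.

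Further called myeloid genes were chosen for mention after their values were seen. They include the inhibitory receptors Pilra (-0.98) and Pirb (-1.03), the phagosomal metal transporter Slc11a1 (-0.82), the lysosomal proteases Lgmn (-0.98) and Ctsc (-0.71), and Aif1 (-0.72), known as the macrophage marker Iba1. The NADPH oxidase subunit Cybb (-0.58) and the purinergic receptor P2ry13 (-0.75) also fell. All arrays of 1 week lay below all of 18 hours, as on every called probe that fell, so this adds nothing to the calls. Further probes that did not pass fell by 0.23 for Ctsc, 0.52 for Slc11a1 and 0.62 for Aif1.

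Without replicate 2 at 18 hours none of the macrophage and monocyte markers passed, and the median of the list was -0.31. In that fit Marco stood at -1.94 (adjusted p 0.0822) and Cd14 at -1.10 (adjusted p 0.0876) in limma, close to their differences with all arrays. Without replicate 2 at 1 week 1 member passed. Beside the hepatocyte markers, Marco, Cd14 and Adgre1 in replicate 1 at 18 hours, where hepatocyte markers were low, were close to replicates 2 and 3. The part of hepatocyte RNA in the macrophage and monocyte values was not tested.

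**Figure D3:**
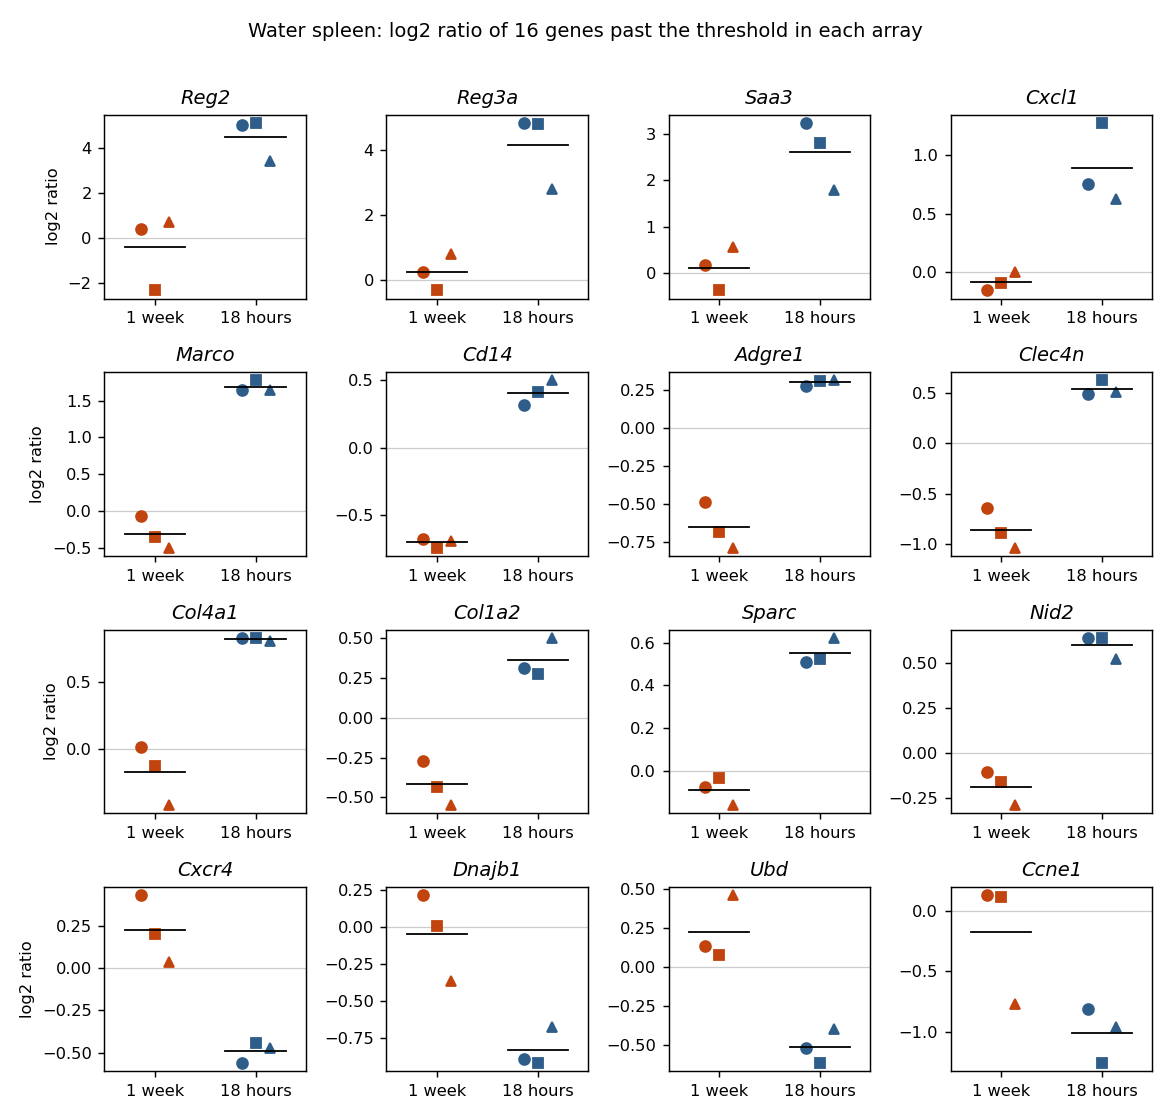
Log2 ratio of 16 called genes in each water spleen array (vertical axes, log2, scaled per gene), with 1 week left and 18 hours right; circles, squares and triangles are replicates 1, 2 and 3, and lines are group means. In the first 12 genes all 1 week arrays lie below all 18 hours arrays, and in Cxcr4, Dnajb1, Ubd and Ccne1 all 1 week arrays lie above them, with replicate 3 of 1 week closest to the 18 hours group in Dnajb1 and Ccne1.

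Few chemokine and neutrophil genes passed. Cxcl1, which attracts neutrophils, had ratios of 0.899, 0.936 and 1.00 at 1 week, against 1.69, 2.42 and 1.55 at 18 hours (difference -0.97, SE 0.21, adjusted p 0.0354 in limma), and was the only 1 of 22 measured chemokine ligands that passed. The median of the chemokine list was -0.10, and 0.712% of all genes were called lower. Cxcr2, the neutrophil receptor for Cxcl1, had 0.987, 0.868 and 0.661 at 1 week, against 1.62, 2.08 and 1.41 at 18 hours (difference -1.02, SE 0.21, adjusted p 0.0315 in limma), with -0.14 on a second probe. It was the only 1 of 16 measured neutrophil markers that passed, beside the same 0.712% of all genes. Csf3r, the receptor for granulocyte colony-stimulating factor, stood at -0.92 with an adjusted p of 0.0602 in limma, while the granule gene Camp stood at 0.83 and did not pass.

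Other called genes of immune signalling were picked after their values were seen: the receptor for bacterial lipoproteins Tlr2 (-0.83), the adaptor Myd88 (-0.63), the NF-kB cofactor Nfkbiz (-0.87), the adhesion molecule Icam1 (-0.71) and the cytokine Il18 (-0.95). The interferon-inducible membrane genes Ifitm1 (-0.90 on 1 of 3 probes, 0.0085 lower on another), Ifitm2 (-0.89) and Ifitm3 (-0.55) fell as well. The list of interferon response genes held none of these, and 0 of its 30 measured members passed, with a median of -0.16. Of 19 measured complement genes 2 fell, beside 0.712% of all genes called lower, and the median was -0.21. They were C1qc and Cfb (-0.66), the factor B of the alternative pathway.

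Of 21 measured genes of the extracellular matrix 5 fell at 1 week and none rose, beside 0.712% of all genes called lower, and the median difference was -0.39. In 13 of them the groups did not overlap with 1 week lower, beside 8.16% of all genes. Col4a1, a chain of the collagen of basement membranes, had ratios of 1.015, 0.920 and 0.750 at 1 week, against 1.78, 1.78 and 1.75 at 18 hours (difference -0.995, SE 0.16, adjusted p 0.0144 in limma). Its partner chain Col4a2 had 1.00, 1.12 and 0.771 at 1 week, against 1.53, 1.70 and 1.75 at 18 hours (difference -0.80, SE 0.17, adjusted p 0.0315 in limma). The 18 hours arrays were nearly equal in Col4a1, and the 1 week arrays spread more widely below them.

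Col1a2, a chain of fibrillar collagen, had 0.830, 0.741 and 0.684 at 1 week, against 1.24, 1.21 and 1.41 at 18 hours (difference -0.78, SE 0.13, adjusted p 0.0149 in limma). Sparc, a collagen-binding matrix protein, had 0.951, 0.979 and 0.896 at 1 week, against 1.42, 1.44 and 1.54 at 18 hours (difference -0.64, SE 0.13, adjusted p 0.0315 in limma). Postn, periostin, was 1.52-fold lower at 1 week (adjusted p 0.0441 in limma), with 0.15 on a second probe. The basement membrane protein Nid2 (-0.79) and the collagen chaperone Serpinh1 (-0.61), named here after their values were seen, also fell, with adjusted p of 0.0144 each in limma. Col3a1 at -0.68 and Bgn at -0.45 did not pass.

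Replicate 1 at 18 hours, low in hepatocyte markers, was near replicates 2 and 3 in Col4a1, Col1a2 and Sparc. The part of hepatocyte RNA in the matrix values was not tested. Of 19 measured markers of stroma and endothelium none passed, and their median was -0.20. In Pdgfrb, Ccl19, Lyve1, Cdh5 and Pecam1 the groups did not overlap with 1 week lower, beside 8.16% of all genes. Without replicate 2 at 18 hours no matrix member passed and the median of the list was -0.47.

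Fewer genes were higher at 1 week, and their rises were small except for 1 probe. Cxcr4, the chemokine receptor that holds cells in the spleen and marrow through its ligand Cxcl12, had ratios of 1.35, 1.15 and 1.03 at 1 week, against 0.679, 0.737 and 0.721 at 18 hours (difference 0.71, SE 0.12, adjusted p 0.0144 in limma). Ubd, a ubiquitin-like protein induced by interferon gamma and tumour necrosis factor, had 1.095, 1.052 and 1.375 at 1 week, against 0.696, 0.653 and 0.759 at 18 hours (difference 0.73, SE 0.14, adjusted p 0.0269 in limma). In both genes the arrays of each group lay close together. Dnajb1, a co-chaperone of the heat shock response, had 1.16, 1.00 and 0.775 at 1 week, against 0.537, 0.529 and 0.624 at 18 hours (difference 0.78, SE 0.15, adjusted p 0.0284 in limma). It was the 1 member of 17 measured heat shock genes that passed, beside 0.115% of all genes called higher.

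Ccne1, cyclin E1, which drives cells into DNA synthesis, had 1.09, 1.08 and 0.586 at 1 week, against 0.569, 0.419 and 0.514 at 18 hours (difference 0.83, SE 0.19, adjusted p 0.0441 in limma). Tac2, the precursor of neurokinin B, had 1.09, 1.27 and 0.746 at 1 week, against 0.681, 0.367 and 0.607 at 18 hours (difference 0.92, SE 0.21, adjusted p 0.0489 in limma). In these 2 genes replicate 3 at 1 week lay just above the highest array of 18 hours. Tmem14c, a mitochondrial protein needed for haem synthesis in red cell precursors, was higher by 0.61 on 1 probe and gave 0.53 with an adjusted p of 0.322 on the other. Also higher were the centrosome gene Ninl by 0.55, the tubulin gene Tubb4b by 0.52 and Ormdl3, a regulator of sphingolipid synthesis, by 0.51.

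Ufl1, the ligase that attaches the small modifier UFM1, had the largest rise, on 1 of 2 probes. Its ratios were 16.90, 13.78 and 15.29 at 1 week, against 0.922, 11.84 and 0.854 at 18 hours (difference 2.86, SE 0.57, adjusted p 0.0306 in limma). Replicate 2 at 18 hours was near the 1 week arrays and the other 2 were far below them. The second probe gave 0.17 and did not pass. The remaining named rises were Ttll8 (0.53), which modifies tubulin, the palmitoyltransferase gene Zdhhc24 (0.52, with -0.03 on a second probe), the protease gene Pcsk4 (0.50, with 0.21, -0.07 and -0.07 on 3 further probes that did not pass), Wdr20rt (0.48) and Hhatl (0.45).

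Most DNA replication, cell cycle and erythroid genes had positive differences, and of these lists Ccne1 alone passed. In DNA replication all 24 measured members had a positive difference with a median of 0.46, and 0 passed. Tyms, thymidylate synthase, had ratios of 1.04, 1.11 and 0.483 at 1 week, against 0.565, 0.443 and 0.573 at 18 hours, with an adjusted p of 0.196 in limma. Replicates 1 and 2 of 1 week were above all arrays of 18 hours and replicate 3 was among them. Of 26 measured cell cycle genes 24 had a positive difference, the median was 0.25, and Ccne1 alone passed, beside 0.115% of all genes called higher. Of 18 measured erythroid markers 16 had a positive difference, the median was 0.22 and 0 passed. Klf1, the master regulator of red cell genes, had 0.999, 1.13 and 0.591 at 1 week, against 0.599, 0.455 and 0.682 at 18 hours.

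These 3 lists turned on replicate 3 at 1 week. Without it, 20 of 24 DNA replication genes, 16 of 26 cell cycle genes and 8 of 18 erythroid markers were higher at 1 week and past the threshold, with medians of 0.78, 0.55 and 0.58, in a fit that called 3.71% of all genes higher and 1.08% lower. With any 1 of the other 5 arrays left out instead, 0 members of these lists passed. The same array was low in neutrophil markers and in the 22 haem and iron genes (median -0.49, against 0.01 in each of the other arrays of 1 week), and why it differs was not tested. Of the haem and iron genes 3 fell with all arrays, namely Cp, Slc11a1 and Hpx, beside 0.712% of all genes called lower. The median was -0.21. Without replicate 3 at 1 week that median was 0.07, with 3 members lower and 6 higher past the threshold.

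Lymphocyte lists stayed near the median of all genes. Of 13 measured T cell, 10 B cell and 12 plasma cell and immunoglobulin genes none passed, with medians of 0.03, 0.08 and -0.02. Of 17 measured genes of NK and cytotoxic cells none passed, but all 17 differences were positive, with a median of 0.22 and a range of 0.03 to 0.38. In 5 of them the groups did not overlap with 1 week higher, beside 5.53% of all genes. Klre1, an NK cell receptor, had 1.08, 0.997 and 1.00 at 1 week, against 0.826, 0.875 and 0.681 at 18 hours (difference 0.38, adjusted p 0.217 in limma). Medians were -0.01 for MHC class II, 0.01 for oxidative phosphorylation and 0.11 for ribosomal proteins, with 0 members called in each.

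**Figure D4:**
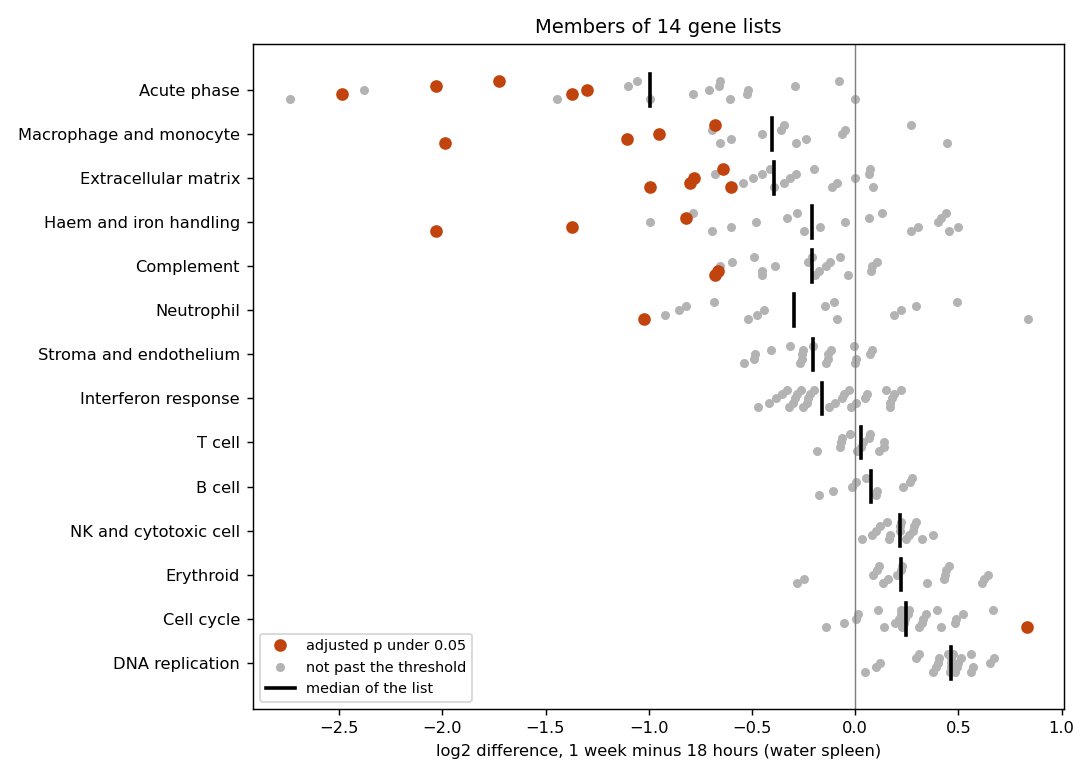
Log2 difference, 1 week minus 18 hours in water spleen (horizontal axis), of every measured member of 14 gene lists; filled red points passed an adjusted p of 0.05, grey points did not, and black bars are list medians. The acute phase, macrophage and matrix lists lie left of 0 with 5, 4 and 5 called members, and DNA replication lies right of 0 (median 0.46) with none.

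The same interval in OPP-drinking mice, measured on 6 other arrays, gave changes of like direction for most of these probes. The OPP groups were male BALB/c mice of the same ages and inoculation that drank OPP at 1500 ppm gallic acid equivalents. Of the 133 probes that fell in water, 67 also fell past the threshold in OPP, where 1.84% of all probes fell. Of the 23 that rose in water, 9 also rose in OPP, where 2.32% of all probes rose. The 76 shared calls are 48.7% of the water calls and 7.62% of the 997 OPP calls, and 147 of the 156 had the same sign in OPP. The share of all probes with the same sign in both drinks was not worked out, so the 147 are given as a description. Reg2 differed by -5.16 and Reg3a by -4.44 in OPP spleen (adjusted p 0.00594 and 0.00488 in limma), Col4a1 by -0.68 and Cxcr4 by 0.53 (adjusted p 0.0238 and 0.0221 in limma). Marco differed by -1.50 and Cd14 by -0.76 (adjusted p 0.0221 and 0.0345 in limma). Pancreatic acinar and islet markers were also lower at 1 week in OPP, and none passed. Acinar differences there ran from -2.29 (Prss1) to -0.51 (Ctrb1), and Ins2 stood at -2.21 (adjusted p 0.0775 in limma). The part of pancreatic RNA in the OPP Reg values was not tested.

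The 18 hours OPP arrays were not alike on these probes. The median log2 ratio of the 133 falling probes was -0.49, -0.41 and -0.44 in the 1 week OPP arrays, against 0.30, 0.10 and -0.24 in the 18 hours OPP arrays. In replicate 3 of the 18 hours OPP group 16 of the 133 lay above the midpoint of the 2 water groups, against 123 in replicate 1 and 95 in replicate 2. In OPP spleen 17 of 24 DNA replication genes, 9 of 26 cell cycle genes and 7 of 18 erythroid markers rose. Of all probes 2.32% rose in OPP spleen. The OPP calls, too, depended on single arrays, from 48 without replicate 1 or replicate 3 at 1 week to 1144 without replicate 3 at 18 hours.

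The change in water differed from the change in OPP for 1 probe of 23982 (0.00417%), with 1742 at an unadjusted p under 0.05. That probe was Dbp, a transcription factor with a strong daily rhythm, which had 1.164, 1.032 and 1.405 at 1 week, against 1.255, 0.822 and 0.975 at 18 hours in water (difference 0.25, adjusted p 0.657 in limma). In OPP it fell by 1.76 on the log2 scale, and the difference between the 2 changes was 2.01 (SE 0.29, adjusted p 0.0221 in limma). The call was lost with array weights, with the replicate block, with a robust variance prior, with only the arrays compared and after quantile normalisation. It was also lost with replicate 1 or replicate 3 of either 1 week group left out, with replicate 3 of either 18 hours group left out, and with replicate 2 of the 18 hours water group left out. A probe past the threshold in water and not in OPP is otherwise not shown to differ between the drinks. Of the DNA replication, cell cycle and erythroid lists no member passed that test.

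**Figure D5:**
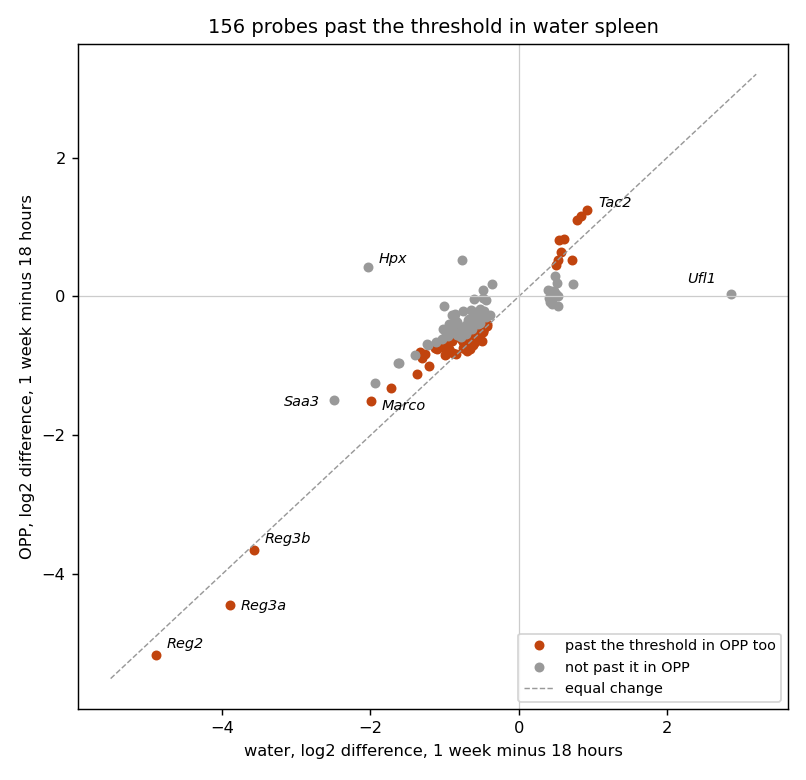
Log2 difference, 1 week minus 18 hours, of the 156 called probes in water spleen (horizontal axis) and of the same probes in OPP spleen (vertical axis); red points also passed an adjusted p of 0.05 in OPP, grey points did not, and the dashed line marks equal change. Reg2, Reg3a and Reg3b lie near the line, while Hpx (-2.03 in water, 0.42 in OPP) and Ufl1 (2.86 in water, 0.04 in OPP) lie off it.

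Some of the falling genes also fell in the liver of water mice. There 1707 probes (7.12%, both directions together) passed between the same times, 1070 higher and 637 lower at 1 week. Of the 156 spleen probes 55 were called in liver with the same sign. Saa3 differed by -7.48 in liver, Marco by -3.35, Cxcl1 by -2.64, Steap4 by -2.30, Adgre1 by -2.01 and Cd14 by -1.15. Reg2 (0.06), Reg3a (-0.01), Col4a1 (-0.18) and Cxcr4 (0.26) did not pass in liver, and Ubd, higher in spleen, was lower there by 1.62. The liver and spleen changes were not tested against each other.

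The 4 weeks water group came from mice 10 weeks old, against 6 weeks at 18 hours, so age and time changed together here too. Set against the same 18 hours arrays and so not independent, this group had Reg2 at -5.55, Reg3a at -4.74, Saa3 at -2.90 and Hpx at -2.13. Its differences were -1.32 for Marco, -0.45 for Cd14, -0.12 for Adgre1 and 0.25 for C1qc. Clec4n stood at -0.38, Treml4 at -0.32 and Cxcr4 at 0.88. The median log2 ratio of the 4 weeks water arrays was 0.08 to 0.11, against -0.06 to 0.00 in the 6 arrays compared here.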

How the data were processed

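Biotinylated cRNA was prepared for Illumina arrays, per the labels' protocols. The authors deposited a linear ratio for each of 23982 probes and each array; the median of every spleen probe over its 18 arrays was 1 in the file. Background correction and scaling are not given in the sources used here. Another deposited table, with 36 signal columns and a detection p beside each, was not used, because its column names match no label; signal over background is therefore unknown. Log2 values of the deposited ratio went into limma 3.58.1 (lmFit, eBayes; R 4.3.3) with 6 spleen group means, 12 residual degrees of freedom, no offset and no filter, and liver was fitted alike. Probe names came from the platform annotation given with the series: a single symbol for 19344 probes (14739 genes), none for 4638. Each list gene is represented by 1 probe, so calls on a gene's other probes are not in list counts. Of 127 called genes 42 had further probes, and in 39 of these a probe was not called. Named genes were the 15 largest called rises and falls without overlap, the 4 smallest p of each list, the 6 smallest p of the difference between drinks, acinar and hepatocyte markers, Alb and Cd79b; further genes are said to be picked after their values were seen, as are Gcg, Mrc1, Vcam1, Lyz2, Ccr2, Slc40a1, Hmox1, C1qa, Saa1, Saa2, Hp, Postn, Col3a1 and Bgn. Members and lists were chosen with earlier results of these data known. The scripts were tested on simulated data.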

Additional observations from a re-analysis of the deposited data

Results flagged for a closer look

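The change from 18 hours to 1 week differed between water and OPP spleens for Dbp, by 2.01 on the log2 scale (water change minus OPP change, adjusted p 0.0221 in limma), a call lost with array weights, the replicate block, a robust variance prior, quantile normalisation, only the arrays compared, and in 7 of the 12 fits with a single array left out. For 7 more genes the groups did not overlap in either drink and moved in opposite directions, while the test of the difference did not pass in limma. These were Hpx at -2.45 (adjusted p 0.50), Tef, a rhythmic transcription factor related to Dbp, at 0.98 (adjusted p 0.4425), and the clock genes Arntl at -0.72 and Per1 at 0.66 (adjusted p 0.4425 each). The others were Plekha7, a junction protein, at 0.66 (adjusted p 0.4425), the phospholipid flippase Atp11a at -0.58 (adjusted p 0.4378), and the transcription factor Hand1 at -0.54 (adjusted p 0.4425). The change in water alone was 0.33 for Tef, with 0.09 and -0.07 on further probes. For Atp11a it was -0.25, with 0.07 on a second probe. Groups of 3 arrays are apart by chance in some of the many probes, and these 7 were picked from the named and listed genes.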

How the results depend on the processing

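With all arrays 156 water probes passed. The count was 2 to 935 with single arrays left out (2 without 18 hours replicate 2, 32 without 1 week replicate 2, 103 without 1 week replicate 1, 935 without 1 week replicate 3), 6 without both 18 hours arrays of high hepatocyte marker level, 31 with only the compared arrays, 578 after quantile normalisation (239 higher, 339 lower) and 103 of 14739 with the probes of a gene averaged. Array weights gave 199, of which 101 were higher, and the cause was not tested. All 156 kept their sign, which with single arrays left out follows from groups that do not overlap. OPP calls were 997, and 48 to 1144 with single arrays left out. The difference between drinks had 1 call, 0 with array weights, only the compared arrays, the replicate block or a robust variance prior, 5 without both high hepatocyte arrays, and 0 to 32 with single arrays left out (32 without water 18 hours replicate 1). With replicate number as a block 186 water probes passed. Same-numbered arrays correlated at 0.0954, -0.1368 and -0.155, only replicate 1 best with its own number. These values gave no sign that the numbers pair the arrays, but with so few arrays they cannot exclude it. Named genes gave 145 weaker and 160 same results with single arrays left out, and no called gene changed sign; Alb, Cd79b and Dbp, which were never called in water, changed sign in some settings (Alb -0.11 to 0.03, Cd79b -0.26 to 0.02, Dbp -0.08 to 0.41). The acinar median had no value where ratios under 0.1 were left out. Arrays give no read depth, and 3 a group limit precision. The settings without both arrays were added after seeing the data.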
